A study of Mus musculus with 24 samples.

Results

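The genes described here are 10 components of the Notch pathway: the ligands Dll1, Dll3, Jag1 and Jag2, the receptors Notch1, Notch2 and Notch3, the DNA-binding effector Rbpj and the target genes Hes1 and Hey1. They were taken by gene symbol from tables of 35742 genes, and each symbol matched 1 gene. The RNA libraries came from V6.5 mouse embryonic stem cells whose BRD2 carries a degron, which lets auxin trigger the breakdown of the bromodomain protein BRD2. The cells were kept as stem cells (mES) in medium with leukaemia inhibiting factor and the inhibitors CHIR99021 (of GSK3) and PD0325901 (of MEK), or were grown without that factor as embryoid bodies (EB), aggregates of differentiating stem cells, taken on day 2 (EBd2), day 3 (EBd3) or day 4 (EBd4). Every group, the controls included, carried the degron and received 1 µg/ml doxycycline for 18 h. Groups called Dox, which some labels call untreated, received nothing more, and groups called IAA also received 500 µM of the auxin indole-3-acetic acid for 24 h. Each of the 8 groups held 3 libraries. The labels name no clone, no Cre or promoter behind the degron, and no untagged or doxycycline-free control. They also do not give when within EB culture the 24 h of IAA fell. They do not say whether the 3 libraries of a group came from separate cultures, so p-values measure the spread between these libraries, which may be technical.

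Notch receptors are membrane proteins activated by ligands of the Delta and Jagged families on neighbouring cells. Ligand binding leads to cleavage of the receptor, and the freed intracellular domain enters the nucleus, joins Rbpj and Mastermind proteins on DNA and turns on Hes and Hey genes, which code for repressors of the basic helix-loop-helix class. In the embryo the pathway is known for segmenting the presomitic mesoderm and for keeping neural progenitors from differentiating, and Hes1 is also expressed in embryonic stem cells.

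Promoters of 3 genes are shown because the results turn on these genes: Notch3 differed with IAA at every stage, Dll1 had the widest range of levels, and Rbpj codes for the factor whose own motif was searched. Each is the 250 bases before a RefSeq start site (GRCm38.p6), on the gene's strand, 5′ to 3′, and capitals mark the motif matches named next. Notch3, chr17:32166891-32167140, minus strand, has 2 N boxes in capitals. Dll1, chr17:15376933-15377182, minus strand, is the outer of 2 start sites and has no match in the bases printed. Rbpj, chr5:53590096-53590345, plus strand, is the first of 2 start sites and has 2 Rbpj core motifs in capitals.
Notch3: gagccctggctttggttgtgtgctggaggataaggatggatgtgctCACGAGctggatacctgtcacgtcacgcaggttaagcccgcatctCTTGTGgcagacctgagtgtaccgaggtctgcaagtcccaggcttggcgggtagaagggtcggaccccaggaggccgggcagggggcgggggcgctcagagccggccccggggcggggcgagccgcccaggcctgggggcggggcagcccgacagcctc
Dll1: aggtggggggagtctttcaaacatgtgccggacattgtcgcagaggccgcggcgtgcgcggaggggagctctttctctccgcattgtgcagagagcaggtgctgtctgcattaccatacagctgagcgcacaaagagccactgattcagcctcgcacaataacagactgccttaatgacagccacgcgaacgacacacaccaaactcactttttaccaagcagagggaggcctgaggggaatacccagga
Rbpj: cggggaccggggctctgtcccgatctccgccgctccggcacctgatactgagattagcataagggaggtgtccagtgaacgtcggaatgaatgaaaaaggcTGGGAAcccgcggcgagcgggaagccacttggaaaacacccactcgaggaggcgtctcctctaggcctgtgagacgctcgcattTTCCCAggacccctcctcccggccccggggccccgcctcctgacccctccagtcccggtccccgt

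Of the 10 genes, 8 had promoters in the RefSeq table, with 10 start sites among 32851 promoters of 300 bases (250 before and 50 after the start). Both strands were searched. The Rbpj core TGGGAA was in 2 of the 10, both of Rbpj, and in 25.6% of all promoters. The windows of these 2 start sites overlap, and the match in the second is the same site as 1 of those in the first. The longer form GTGGGAA, which contains the core, was in 0 of the 10 and in 6.38% of all. The N box CACNAG, bound by Hes proteins, was in 4 of the 10 (the outer Dll1 site, Notch1, Notch2 and Notch3) and in 42.5% of all. The E box CACGTG (7.15% of all) and TATAAA (13.6% of all) were in 0 of the 10. All 10 had more CpG dinucleotides (11 to 63) than the median of all promoters, which was 7. These are matches of letters in a window and describe no binding.

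Total recovered reads per library ran from 7819522 to 15732767. In EBd4 every IAA library was deeper (9007143 to 10598075 reads) than every Dox library (7941180 to 8120480). The EBd2 Dox 3 library stood apart from Dox 1 and Dox 2, with a chi-square per degree of freedom over genes of 4.09 and 3.44 against 1.27 between those 2, and the widest pair of all was EBd4 IAA 1 and IAA 3 (4.90). RNA of the targeted gene Brd2 was higher with IAA in every stage (4413 to 4606 against 8034 to 8441 normalized counts in mES), and since the degron acts on the protein its RNA checks nothing about removal. Summed pluripotency markers (8 genes) were 53524.5 to 55351 in mES Dox and 18322.6 to 19577 in EBd4 Dox, and summed epiblast markers (5 genes) were 1395 to 1528 and 19685 to 21276. Values below are normalized counts, that is counts divided by 1 size factor per library. Differences are log2 differences ± SE from limma on the log2 of the value plus 1, which understates the change of genes with few reads, and "rose" and "fell" mean an adjusted p below 0.05. In whole cultures, fewer cells of a type and less RNA per cell cannot be told apart.

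The first question was how the pathway changes from stem cells to embryoid bodies without IAA. Of the 4 ligand genes 3 rose on day 2, Dll1 by most, while the receptor genes Notch3 and Notch2 rose and Notch1 fell at every stage, and Hes1 fell on day 2 and was back near its stem cell level on day 4. Of the 10 genes, 7 passed the test in EBd2 against mES (5 up, 2 down), where 64.1% of the 22141 genes tested passed (35% up, 29.1% down). On day 3 all 10 passed (6 up, 4 down), against 60.1% of genes (31.5% up, 28.6% down). On day 4, 9 passed (6 up, 3 down), against 60.8% (30.6% up, 30.2% down). The median difference of the 10 genes was 0.45, 0.89 and 1.01 at the 3 stages, against 0.07, 0.03 and 0 over all genes tested. Groups without overlap were found for 7, 10 and 10 of the 10 genes, against 69.2%, 66.2% and 64.9% of all genes. Among the 14807 genes with a mean of at least 10, 11578, 11036 and 11243 passed at the 3 stages. The 3 comparisons share the mES Dox libraries.

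**Figure D1:**
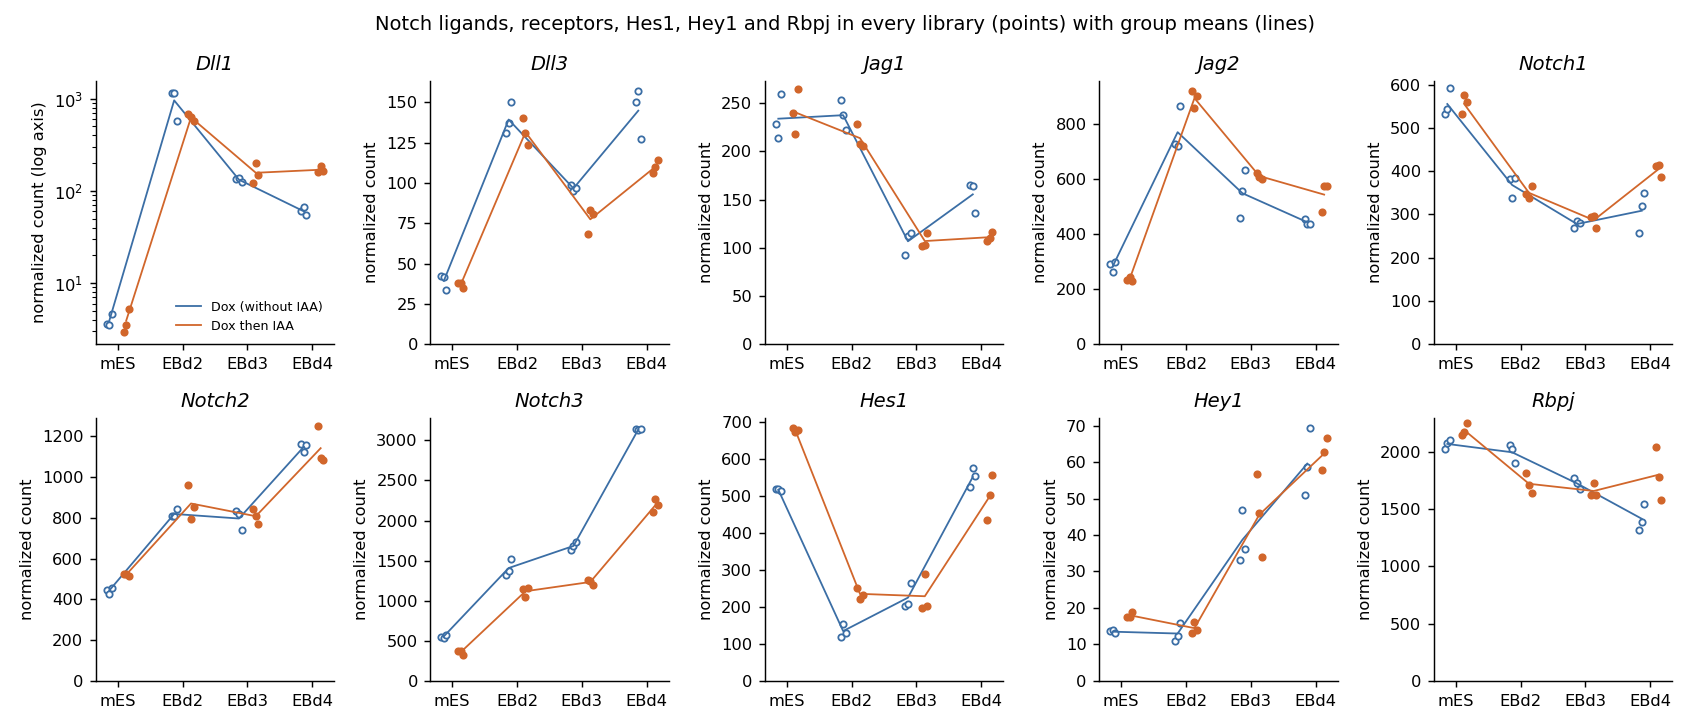
Normalized count of each gene (vertical axis, logarithmic for Dll1 and from 0 for the others) in mES cells and embryoid bodies of days 2, 3 and 4. Points are libraries (open, Dox; filled, IAA) and lines join group means; Notch3 is lower with IAA in all 4 stages, and Dll1 peaks in EBd2.

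Dll1 (chromosome 17, 15367354 to 15376872) codes for the Delta ligand of presomitic and neural tissue. In mES Dox its libraries held 3.62, 3.47 and 4.65 normalized counts, from 4 to 5 reads each. In EBd2 Dox they held 1144, 1151 and 578.5, in EBd3 Dox 133, 137 and 126, and in EBd4 Dox 59.8, 66.0 and 54.1. Every EB library was thus above every mES library, and the order EBd2, EBd3, EBd4, mES had no overlap between neighbours among the Dox groups. The difference from mES was 7.55 ± 0.19 in EBd2 (adjusted p = 1.99e-20), 4.77 ± 0.19 in EBd3 (adjusted p = 1.68e-16) and 3.64 ± 0.19 in EBd4 (adjusted p = 2.83e-14). The low EBd2 value was that of the library that stood apart, and without it the EBd2 difference was 7.88, the upper end of the range from 7.38 that leaving out each library gave.

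The other ligands moved less. Jag2 (chromosome 12, 112907819 to 112929776), a Jagged ligand, rose from 283 ± 19.3 (SD, n = 3) in mES to 769.8 ± 81.7 on day 2, 548 ± 87.9 on day 3 and 443 ± 10.1 on day 4 (differences 1.44, 0.94 and 0.65). Dll3 (chromosome 7, 28293553 to 28302238), a Delta-like protein known to act inside the cell that makes it, rose from 39.2 ± 5.03 to 139 ± 9.79, 96.6 ± 1.91 and 145 ± 15.7 (1.81, 1.29 and 1.86). Jag1 (chromosome 2, 137081456 to 137116644), the other Jagged ligand, was at 234 ± 23.3 in mES and 237 ± 15.7 in EBd2 (0.02 ± 0.11, adjusted p = 0.855). It fell to 107 ± 12.3 in EBd3 (-1.13 ± 0.11) and was also lower in EBd4, at 155 ± 16.8 (-0.59 ± 0.11, adjusted p = 4.43e-05). Per kilobase of exon, the 4 ligands summed to 95.5 ± 5.34 in mES Dox, 427 ± 65.2 in EBd2, 162 ± 13.6 in EBd3 and 155 ± 10.2 in EBd4. Of that sum Dll1 made up 0.969% in mES and 52.0% in EBd2, and Jag1 and Jag2 made up 42.0% and 42.6% in mES. By EBd4 the leading shares were Jag2 with 41.1% and Dll3 with 32.7%.

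Among the receptors, Notch3 (chromosome 17, 32120820 to 32166852) rose at each stage. Its Dox libraries held 552, 540.3 and 574 in mES, 1321, 1376 and 1526 in EBd2, 1634, 1682 and 1735 on day 3, and 3141, 3126 and 3139.8 on day 4. The 4 stages did not overlap. The SD of the 3 day 4 values, 8.37, is smaller than counting noise alone is expected to give at 2467 to 2509 reads per library. The difference from mES was 1.34 ± 0.05, 1.60 ± 0.05 and 2.495 ± 0.05 (adjusted p = 1.72e-17, 5.82e-19 and 9.25e-23). Notch2 (chromosome 3, 98013527 to 98150361) rose as well, from 444 ± 14.6 to 819.7 ± 19.2, 797 ± 49.6 and 1149.5 ± 22.4 (0.88, 0.84 and 1.37). Notch1 (chromosome 2, 26457903 to 26516663) fell from 556 ± 32.0 to 368 ± 25.1, 278 ± 7.59 and 309 ± 47.2 (-0.59, -0.995 and -0.86). Per kilobase the 3 receptors summed to 149 ± 5.42 in mES, 276 ± 15.5 in EBd2, 302 ± 2.96 in EBd3 and 516 ± 3.8 in EBd4. Notch3 went from 46.1% of that sum to 75.1%, Notch1 from 26.2% to 4.20%, and Notch2 from 27.7% to 20.7%. Shares between genes depend on the exon lengths used: 14232 bases for Notch1, 10782 for Notch2 and 8089 for Notch3. These join all annotated exons and may exceed the transcript expressed. Short annotated transcripts overlap these genes: Gm17276 on the other strand of Notch3 by 488 exonic bases and 0610009E02Rik on that of Notch1 by 1068, with mean values of 6.25 and 4.82, and the use of strand in counting is not given in the sources used here.

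**Figure D2:**
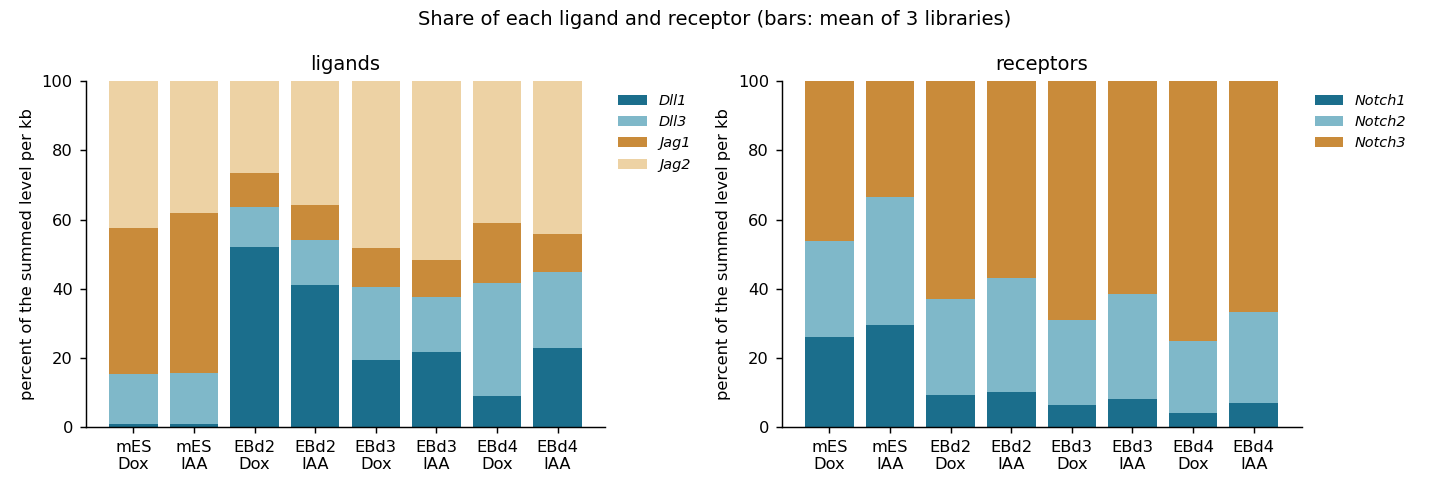
Share of each ligand (left) and receptor (right) in the summed normalized count per kilobase of exon, in percent, for the 8 groups; bars are means of 3 libraries. Dll1 goes from 0.969% to 52.0% of the ligand sum between mES Dox and EBd2 Dox, and Notch3 from 46.1% to 75.1% of the receptor sum between mES Dox and EBd4 Dox.

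Hes1 (chromosome 16, 30064384 to 30067796) codes for the repressor through which Notch restrains proneural genes. Its Dox libraries held 519.998, 519 and 513 in mES, 119, 155 and 131 on day 2, 203, 209 and 264 on day 3, and 525, 577 and 554 on day 4. EBd2 lay below every other Dox group, and EBd4 lay above mES without overlap but did not pass the test (0.09 ± 0.10, adjusted p = 0.427). The fall was -1.94 ± 0.10 in EBd2 (adjusted p = 5.73e-15) and -1.21 ± 0.10 in EBd3 (adjusted p = 6.41e-11). Hey1 (chromosome 3, 8663359 to 8667256), a related repressor, was at 13.5 ± 0.451 in mES and 12.99 ± 2.52 in EBd2 (-0.07 ± 0.24, adjusted p = 0.824). It rose to 38.7 ± 7.17 in EBd3 and 59.6 ± 9.20 in EBd4 (1.44 and 2.05). Per kilobase Hes1 made up 98.4% of the sum of the 2 genes in mES and 93.7% in EBd4. Rbpj (chromosome 5, 53466152 to 53657362), the DNA-binding effector, was at 2071 ± 42.0 in mES and 1998 ± 80.2 in EBd2 (-0.05 ± 0.05, adjusted p = 0.370), and fell to 1726 ± 49.2 in EBd3 and 1417 ± 116 in EBd4 (-0.26 and -0.55). It spanned the narrowest range of the 10 genes, 1.55-fold from its lowest to its highest group mean over all 8 groups, against 245-fold for Dll1. The pseudogene Rbpj-ps3 is counted apart, with a mean of 9.62, and reads that fit both could be split between them.

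**Figure D3:**
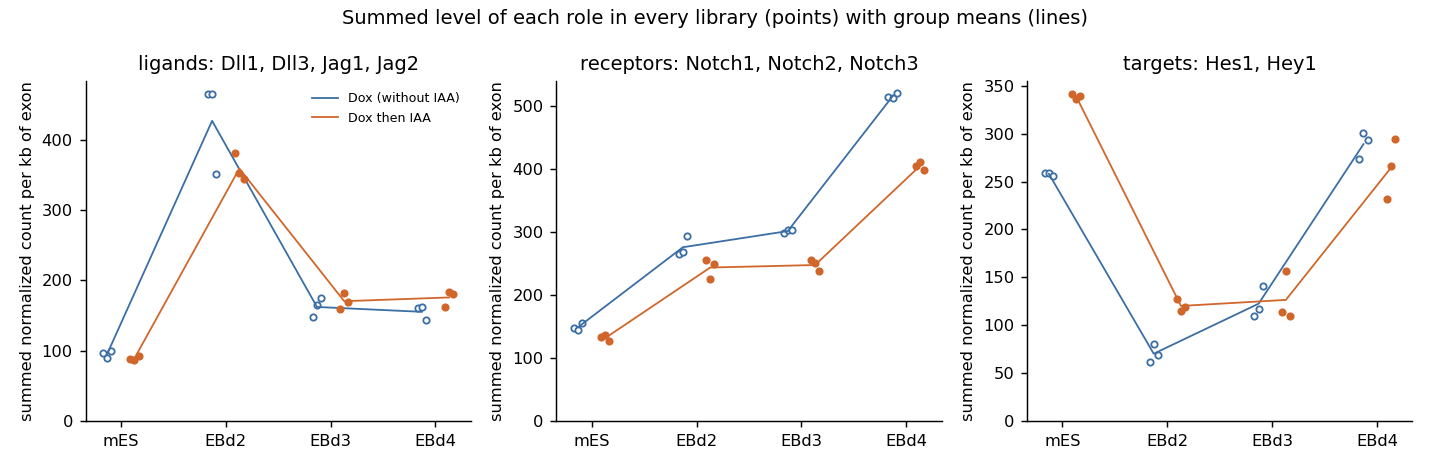
Normalized counts per kilobase of exon, summed over the 4 ligands, the 3 receptors and the 2 target genes (vertical axes from 0), by stage. Points are libraries (open, Dox; filled, IAA) and lines join group means; the receptor sum is lower with IAA at each stage, and the target sum is lowest in EBd2 and EBd3.

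The wider pathway was read from lists of 82 genes in all, the 10 included. Against mES, 33 of the 80 tested rose and 26 fell on day 2, 34 and 31 on day 3, and 35 and 25 on day 4, where 64.1%, 60.1% and 60.8% of all genes passed. Among other ligands, Dlk1, a non-canonical ligand, rose from 2.40 to 127 in EBd2 (5.25), 43.7 in EBd3 and 23.5 in EBd4, and Dll4, the Delta ligand of vessels, from 2.68 to 18.0 in EBd2 (2.37). The fourth receptor gene, Notch4, fell from 185 to 16.6, 24.3 and 22.2 (-3.48, -2.94 and -3.0). In receptor modification and cleavage, 2 of 15 rose and 7 fell in EBd2, among them the glycosyltransferase Poglut1 (-1.14), the protease Adam10 (-1.07) and the fucosyltransferase Pofut1 (-0.83). Of the genes for trafficking and turnover, 5 of 14 rose and 6 fell in EBd2, with the ubiquitin ligase genes Dtx4 up (2.59) and Mib2 down (-1.77). Of 9 tested genes of the nuclear complex, 5 rose and 3 fell on day 2, 4 and 4 on day 3, and 4 and 3 on day 4. The coactivator Ep300 rose at each stage (0.98, 0.63 and 0.79) and the Mastermind gene Maml3 in EBd3 (2.85) and EBd4 (4.62), while the acetyltransferase genes Kat2a (-0.55 in EBd2, -0.48 in EBd3) and Kat2b (-1.32 in EBd4) fell. Of the 14 corepressors, 5 rose on day 2, 4 on day 3 and 3 on day 4, while 7, 9 and 9 fell, with Sap30, of the Sin3 complex, lower at each stage (-1.48, -1.34 and -1.23).

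In the Hes and Hey family, 3 of 9 rose and 1 (Hes1) fell on day 2, with the same counts on day 3, and 5 rose on day 4. The largest rise on days 2 and 3 was that of Hes6, known to oppose Hes1, from 103 in mES to 774 in EBd2, 553 in EBd3 and 385 in EBd4 (2.90, 2.42 and 1.90). The highest group mean of Hes5 was 4.66, that of Hes7 4.61 and that of Hey2 5.68, all few reads per library. Proneural genes, which Hes repressors are known to hold down, rose in EBd2 in 6 of the 7 tested, where 35% of all genes rose. In EBd3 4 of the 7 rose and 1 fell, and in EBd4 2 rose and 1 fell. Neurod1 went from 0.881 to 320 normalized counts in EBd2 and was at 35.9 in EBd3 and 9.67 in EBd4 (differences 7.53, 4.38 and 2.59). Insm1 went from 2.43 to 216.5, 41.6 and 19.7 (6.08, 3.72 and 2.68). Dll1, Neurod1 and Insm1 were thus all highest in EBd2 and Hes1 lowest there, among the Dox groups. Any link between these levels was not tested.

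The second question was what changed in stem cells when IAA was added. In mES, 5 of the 10 genes passed the test: Notch3 and Jag2 fell, and Hes1, Notch2 and Rbpj rose. Of all 20865 genes tested, 37.5% passed (17.3% up, 20.1% down), and 6 of the 10 genes, against 45.8% of all genes, had groups without overlap. The median difference was 0.02 over the 10 genes and -0.01 over all. Of the 13999 genes with a mean of at least 10, which leave out Dll1, 7469 passed.

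**Figure D4:**
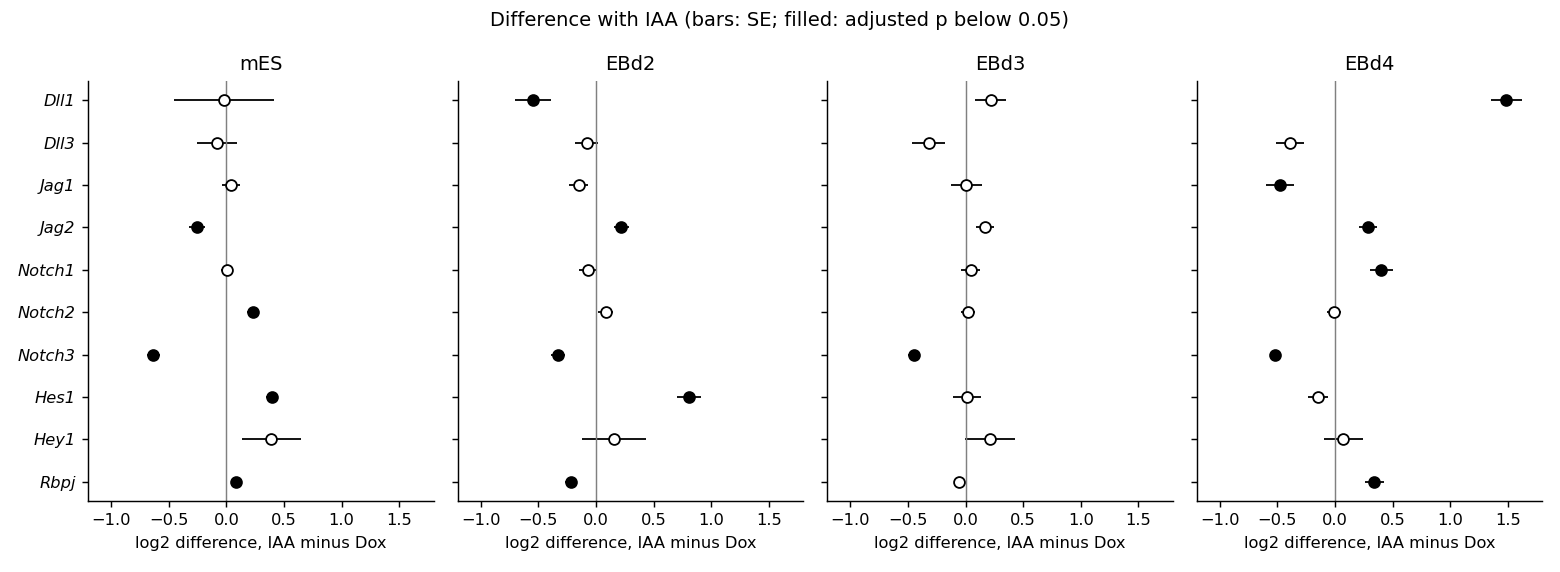
Log2 difference of IAA minus Dox (horizontal axis) for each gene in each stage, with bars of 1 SE; filled points have an adjusted p below 0.05. Notch3 lies left of 0 in all 4 panels, Hes1 right of 0 in mES and EBd2, and Dll1 at 1.48 in EBd4.

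Notch3 held 378, 378 and 319 in the mES IAA libraries, each below the lowest Dox library (540.3), a difference of -0.63 ± 0.06 (adjusted p = 1.64e-11). Jag2 held 290, 261 and 298 in Dox and 233, 245 and 231 in IAA (-0.26 ± 0.07, adjusted p = 0.00237). Hes1 held 684, 675 and 679.8 with IAA, all above the highest Dox library, and rose by 0.39 ± 0.05 (adjusted p = 4.32e-09). The SDs of Hes1 were 3.92 in Dox and 4.60 in IAA. Both are smaller than counting noise alone is expected to give at 552 to 598 and 700 to 903 reads per library. In the authors' deposited table Hes1 in mES had a log2 fold change of 0.39, an SE of 0.10 and an adjusted p of 7.13e-04, with the call unchanged. Notch2 held 447, 428 and 457 in Dox and 525, 527 and 513 in IAA (0.23 ± 0.05, adjusted p = 2.77e-04). Rbpj held 2026, 2079 and 2109 in Dox and 2148, 2176 and 2253 in IAA, a small rise of 0.08 ± 0.03 (adjusted p = 0.0290). Its call was lost with 1 spread over all 24 libraries (adjusted p = 0.375) and without Dox 1 (0.07, adjusted p = 0.135), Dox 2 (0.08, adjusted p = 0.0649) or IAA 3 (0.06, adjusted p = 0.144). The authors' deposited adjusted p for Rbpj in mES was 0.350.

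Hey1 was higher in every mES IAA library (17.6, 17.6 and 18.8) than in every Dox library (13.6, 13.9 and 13.01), with a difference of 0.39 ± 0.26 that did not pass (adjusted p = 0.258). Notch1 (556 in both groups), Jag1 (234 and 240.4), Dll3 (39.2 and 36.9) and Dll1 (3.91 in both, from 3 to 7 reads per library) overlapped. The ratio of the receptors moved: Notch3 was 46.1% ± 0.300 of the receptor sum per kilobase in mES Dox and 33.6% ± 2.09 in IAA (SD, n = 3), with Notch2 at 27.7% and 36.7%. Marker sums moved in the same stage and their part in these results was not tested. The 5 epiblast markers summed to 695 to 809 with IAA against 1395 to 1528, with Fgf5 at 0 in both groups. Of the 4 tested, Dnmt3b fell, from 1047 to 320, and 2 rose, Pou3f1 (0.35) and Otx2 (0.21). The 8 pluripotency markers summed to 59691 to 61421 with IAA against 53524.5 to 55351. Of those 8, 6 rose and 2 fell. The 8 neural markers summed to 2642 to 2775 with IAA against 2345 to 2508 (2 up, 2 down of 6 tested), with Dcx and Fabp7 at 0 in both groups. The 8 presomitic markers summed to 36.1 to 46.9 with IAA against 19.0 to 26.9, with 1 of 3 tested up, Meox1 at 0 with IAA and Msgn1, Mesp1, Ripply2 and Uncx at 0 in Dox.

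Of the wider pathway in mES, 17 of 75 tested genes rose and 18 fell, against 17.3% and 20.1% of all genes. Corepressor genes were called up in 6 of 14 and down in 1, with Tle3, a Groucho-type corepressor, going from 1683 to 2287 (0.44) and Spen, which binds Rbpj directly, from 1724 to 2081 (0.27), while Ctbp2 fell (-0.24). Trafficking and turnover genes rose in 4 of 14 and fell in 6, with Numbl (0.46) and Mib2 (0.28) up and Dtx3 down (-0.29). Of receptor modification and cleavage genes, 3 of 15 rose and 5 fell, with Pofut1 (0.37) and the gamma-secretase subunit Ncstn (0.26) up and the Fringe gene Mfng down (-0.75). In the nuclear complex Ep300 rose (0.25) and the acetyltransferase genes Kat2b (-0.26) and Kat2a (-0.17) fell. Hes2 was at 4.83 in Dox and 1.52 in IAA (-1.29, adjusted p = 0.0356).

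On day 2 Hes1 rose again, while Dll1, Notch3 and Rbpj fell and Jag2 rose. These were 5 of the 10 genes, against 30.1% of the 22076 genes tested (13.4% up, 16.7% down). Groups without overlap were found for 3 of the 10, against 41.9% of all genes, and the median difference was -0.08 over the 10 and -0.04 over all. Of the 14698 genes with a mean of at least 10, 6233 passed.

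Hes1 held 250.8, 223 and 233 in EBd2 IAA against 119, 155 and 131 in Dox. The groups did not overlap, and the difference was 0.81 ± 0.10 (adjusted p = 3.34e-06), the call holding under all 15 alternatives. With IAA, Hes1 in EBd2 overlapped its own EBd3 range, whereas in Dox it lay below it. Notch3 held 1149.6, 1042 and 1164 with IAA, all below the lowest Dox library of 1321 (-0.33 ± 0.06, adjusted p = 2.31e-04). Rbpj held 1814, 1711 and 1643 with IAA against 2058, 2028 and 1907 (-0.21 ± 0.05, adjusted p = 0.00277).

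Dll1 held 675, 626 and 574 in EBd2 IAA against 1144, 1151 and 578.5 in Dox, a difference of -0.55 ± 0.16 (adjusted p = 0.0112). The groups overlapped through Dox 3, the library that stood apart, and without it the difference was -0.88 ± 0.06 (adjusted p = 3.51e-14). The call was lost with DESeq2 on the libraries of this stage (-0.59, adjusted p = 0.165) and without Dox 1 (-0.39, adjusted p = 0.0908), Dox 2 (-0.38, adjusted p = 0.104), IAA 2 (-0.55, adjusted p = 0.0551) or IAA 3 (-0.49, adjusted p = 0.0811). In the authors' deposited table Dll1 in EBd2 had a log2 fold change of -0.61 and an adjusted p of 0.00330, with the call unchanged. Jag2 held 921, 858 and 901 in IAA against 726, 719 and 864 in Dox (0.22 ± 0.07, adjusted p = 0.0156). Its highest Dox value was again that of Dox 3, and without it the difference was 0.30 ± 0.06. Its call was lost with 1 spread over all 24 libraries (adjusted p = 0.0514) and without Dox 1 (0.18, adjusted p = 0.0836), Dox 2 (0.17, adjusted p = 0.105), IAA 1 (0.20, adjusted p = 0.0765) or IAA 3 (0.21, adjusted p = 0.0654). Without Dox 3 the other calls of this stage stayed in place, with Hes1 at 0.79 and Notch3 at -0.27, and Rbpj at -0.25.

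The shares of the ligands moved with Dll1 and Jag2. Dll1 was 52.0% ± 11.3 of the ligand sum per kilobase in EBd2 Dox and 41.2% ± 1.43 in IAA, and Jag2 26.6% ± 7.47 and 35.7% ± 1.62 (SD, n = 3). Markers moved too, and their part in these results was not tested. The 8 neural markers summed to 2447 to 2493 with IAA against 1325 to 1376, none at 0 in either group, with 4 of the 8 up (Pax6 from 100.5 to 261 and Tubb3 from 320 to 729 among them) and 1 down. The 5 epiblast markers summed to 31990.3 to 33839 against 23731 to 25471, none at 0, with 4 of the 5 up. The 8 presomitic markers, the tissue in which Dll1 is best known, summed to 55.9 to 58.3 with IAA and 44.4 to 61.4 in Dox, with Msgn1 at 0 in Dox and Meox1 at 0 with IAA. The 7 streak markers summed to 123 to 154 with IAA against 223 to 261, and the 8 endothelial and blood markers to 564 to 627 against 797 to 1056, none at 0 in either group. The 6 primitive endoderm markers summed to 216 to 230.5 with IAA against 190.0 to 198, none at 0. Of these 6, 1 rose (Gata4, from 90.0 to 119) and 0 fell.

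Of the wider pathway in EBd2, 12 of 80 tested genes rose and 15 fell, against 13.4% and 16.7% of all genes. In receptor modification and cleavage 4 of 15 rose and 1 fell, with the shedding protease gene Adam17 going from 480.1 to 689 (0.52) and Pofut1 up (0.45). In the nuclear complex 1 of 10 rose (Ep300, 0.16) and 4 fell, among them Kat2b (-0.52) and Maml1 (-0.27). Among corepressors, with 3 of 14 up and 2 down, Tle3 (-0.43) and Spen (-0.32) fell, each having risen in mES, and Sap30 rose (0.37). Of trafficking genes Numb rose (0.35), and Dtx1 (-0.47) and Fbxw7 (-0.28) fell. The proneural gene Neurod1 fell from 320 to 199 (-0.68, adjusted p = 3.69e-06), while Insm1 was at 216.5 and 231.

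On day 3, 1 of the 10 genes passed, against 10.5% of the 21304 genes tested (4.22% up, 6.32% down). This was Notch3, with 1263, 1247 and 1191 in IAA against 1634, 1682 and 1735 in Dox (-0.45 ± 0.05, adjusted p = 2.98e-07). Hes1, which had risen with IAA in mES and EBd2, held 196, 289 and 202 in IAA and 203, 209 and 264 in Dox (0.01 ± 0.12, adjusted p = 0.973). Dll1 held 121, 200.04 and 149.7 against 133, 137 and 126 (0.22 ± 0.14, adjusted p = 0.365). In both genes the IAA libraries lay on both sides of the Dox range. Dll3 held 68.4, 83.2 and 80.7 with IAA, each below the Dox libraries (98.5, 94.7 and 96.6), but its difference of -0.32 ± 0.14 did not pass (adjusted p = 0.164). Of the 10 genes 2 had groups without overlap, against 26.9% of all genes. Among the 14406 genes with a mean of at least 10, 2375 passed. Jag2 (0.17 ± 0.08, adjusted p = 0.214) passed without Dox 3 alone (0.28, adjusted p = 0.0409). The 8 neural markers summed to 2831 to 3048 with IAA against 2547 to 2625, none at 0. Of these 8, 1 rose (Tubb3, 0.57) and 2 fell (Map2, -0.67, and Dcx, -2.05). The 7 streak markers summed to 95.5 to 131 with IAA against 161 to 171, with Gsc at 0 with IAA, and 2 of the 6 tested fell. The 8 pluripotency markers (16833 to 17382 against 17774 to 17918) and the 8 endothelial and blood markers (293 to 358 against 361 to 374) also summed to less with IAA, none at 0. Of the pluripotency markers 1 rose (Sox2, 0.22) and 1 fell (Nanog, -0.49), and of the endothelial and blood markers 0 rose and 1 fell (Tek, -1.67). The part of these lists was not tested. Of the wider pathway 5 of 78 tested genes rose and 5 fell, against 4.22% and 6.32% of all genes, with Ep300 (0.18), Sap30 (0.30) and Adam17 (0.20) up and Dtx1 (-0.33), Kat2b (-0.26), Maml3 (-0.72) and Ncor1 (-0.14) down.

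On day 4, 6 of the 10 genes passed the test, against 10.3% of the 21170 genes tested (4.69% up, 5.57% down). Dll1, Notch1, Rbpj and Jag2 rose with IAA, and Notch3 and Jag1 fell. Groups without overlap were found for 7 of the 10, against 28.5% of all genes, and the median difference was 0.03 over the 10 and -0.01 over all. Of the 14284 genes with a mean of at least 10, 2390 passed.

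Dll1 held 158, 186 and 165 with IAA against 59.8, 66.0 and 54.1 in Dox. All IAA libraries were above all Dox libraries, by 1.48 ± 0.13 (adjusted p = 3.11e-05), and leaving out any 1 library gave 1.41 to 1.55. With IAA Dll1 thus overlapped between days 3 and 4, while in Dox it was lower on day 4 without overlap. In the authors' deposited table the log2 fold change of Dll1 in EBd4 was 1.497, and it alone of the 10 genes is called changed there in any stage. The call column of the authors' deposited table rests on more than its p-value, since it lists Notch3 in EBd4 as unchanged at an adjusted p of 1.07e-18. Notch3 held 2106, 2266 and 2195 with IAA against 3141, 3126 and 3139.8 (-0.52 ± 0.04, adjusted p = 2.36e-05). Of the 18244 genes tested in all 4 stages, 0.948% fell in all 4, and among the 10 genes this was true of Notch3. The 6 fibroblast markers summed to less with IAA in mES (15.1 to 32.6 against 46.0 to 50.2, with Col3a1, Dcn and Lum at 0 in both groups) and EBd2 (107 to 117 against 169 to 215), and overlapped in EBd3 (234 to 331 against 281 to 350.3) and EBd4 (367 to 536 against 232 to 400.3). The 8 endothelial and blood markers summed to more with IAA in mES (2139 to 2293 against 1859 to 1986) and EBd4 (153 to 178 against 151 to 152). In mES most of that sum was Pecam1, which rose from 1818 to 2167, with Cdh5 at 0 in both groups. Of the 7 tested in mES 1 rose and 2 fell, Tal1 (-1.33) and Tek (-0.64), and in EBd4 1 of 8 rose and 0 fell. The part of this list was not tested.

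Notch1 held 413, 415 and 387 with IAA against 257, 319 and 350.0 (0.40 ± 0.10, adjusted p = 0.0194). Its call was lost without Dox 1 (0.28, adjusted p = 0.0994), Dox 2 (0.43, adjusted p = 0.0761), IAA 1 (0.39, adjusted p = 0.0820) or IAA 2 (0.38, adjusted p = 0.102). Rbpj held 2042, 1783 and 1580.0 against 1318, 1388 and 1545 (0.34 ± 0.08, adjusted p = 0.0137). Its call was lost without Dox 1 (0.29, adjusted p = 0.122), Dox 2 (0.33, adjusted p = 0.0983), IAA 1 (0.25, adjusted p = 0.0741) or IAA 2 (0.35, adjusted p = 0.0721). For both genes the nearest libraries of the 2 groups were Dox 3 and IAA 3, so the gap between the groups was narrow.

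The Jagged ligands moved in opposite directions. Jag1 held 107, 109.6 and 116 with IAA against 166, 164 and 136 (-0.48 ± 0.12, adjusted p = 0.0198). It was lost with DESeq2 on the libraries of this stage (-0.47, adjusted p = 0.0676) and without Dox 1 (-0.43, adjusted p = 0.108), Dox 2 (-0.43, adjusted p = 0.110), IAA 1 (-0.45, adjusted p = 0.0630) or IAA 2 (-0.47, adjusted p = 0.0824). In the authors' deposited table Jag1 in EBd4 had a log2 fold change of -0.49 and an adjusted p of 0.00568, with the call unchanged. Jag2 held 481, 575 and 573 against 455, 437 and 437 (0.29 ± 0.08, adjusted p = 0.0288). It was lost without Dox 1 (0.31, adjusted p = 0.0920), Dox 2 (0.28, adjusted p = 0.123), Dox 3 (0.28, adjusted p = 0.0778), IAA 2 (0.25, adjusted p = 0.156) or IAA 3 (0.25, adjusted p = 0.0914). Dll3 held 106, 109.6 and 114 against 150.3, 157 and 127 and just missed (-0.39 ± 0.12, adjusted p = 0.0542), passing with a filter at a mean of 10 (adjusted p = 0.0452), with 1 spread over all 24 libraries (adjusted p = 0.0288) and without Dox 3 (-0.48, adjusted p = 0.0355). In the authors' deposited table Dll3 in EBd4 had a log2 fold change of -0.40 and an adjusted p of 0.0446, with the call unchanged. Hes1 (-0.15 ± 0.09, adjusted p = 0.310), Hey1 (0.07 ± 0.17, adjusted p = 0.852) and Notch2 (-0.01 ± 0.06, adjusted p = 0.938) overlapped between the groups.

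The 7 primitive streak markers varied widely in the same 6 libraries, so the members are set beside them. T (brachyury), the defining marker of the streak, held 2091, 1602 and 826 in Dox and 39.8, 322 and 1556 in IAA. The summed list was 4495, 3856 and 2138 in Dox and 199.96, 789.9 and 2901 in IAA, no marker at 0 in either group, with 5 of the 7 called down. Rbpj was highest (2042) in the library with least T and lowest (1318) in the library with most. Notch1 was likewise lowest (257) where T was highest and at 413 to 415 in the 2 libraries with least T. Hes1 was lowest (436) in the library with least T. Within IAA, T ran from 39.8 to 1556, Dll1 from 158 to 186 and Notch3 from 2106 to 2266. Within Dox, T ran from 826 to 2091, Dll1 from 54.1 to 66.0 and Notch3 from 3126 to 3141. No Dox library had T as low as IAA 1 or IAA 2.

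IAA 3 and Dox 2 had nearly the same T (1556 and 1602), though the summed streak list was lower in IAA 3 (2901 against 3856), and they are set side by side as 1 library each, with no test. The ratio of IAA 3 to Dox 2 was 2.49 for Dll1, 0.726 for Dll3, 0.706 for Jag1, 1.31 for Jag2, 1.21 for Notch1, 0.963 for Notch2, 0.702 for Notch3, 0.968 for Hes1, 1.14 for Hey1 and 1.14 for Rbpj. Without IAA 3, which alone among the IAA libraries had T in the range of the Dox group, the difference was 1.504 for Dll1 (adjusted p = 1.05e-04), -0.52 for Notch3, 0.43 for Rbpj and 0.43 for Notch1. Without IAA 1, the library with least T, it was 1.53 for Dll1 (adjusted p = 5.23e-04), -0.49 for Notch3 and 0.25 for Rbpj. The part of the streak markers in the results of this stage was not tested. The 8 presomitic markers summed to 45.5 to 86.8 with IAA and 34.0 to 62.3 in Dox, with Meox1 and Uncx at 0 with IAA, and the 8 neural markers to 2383 to 2508 and 2441 to 2745, so both lists overlapped between the groups of EBd4. The 8 pluripotency markers summed to less with IAA (16636 to 17686 against 18323 to 19577), as did the 5 epiblast markers (18661 to 19656 against 19685 to 21276), none at 0 in either group. Of the 8 pluripotency markers 2 fell, Nanog (-0.33) and Pou5f1 (-0.29), and 3 rose, Sox2 (0.59) among them. Of the 5 epiblast markers 1 fell (Fgf5, -0.67) and 0 rose. The part of these lists was not tested.

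**Figure D5:**
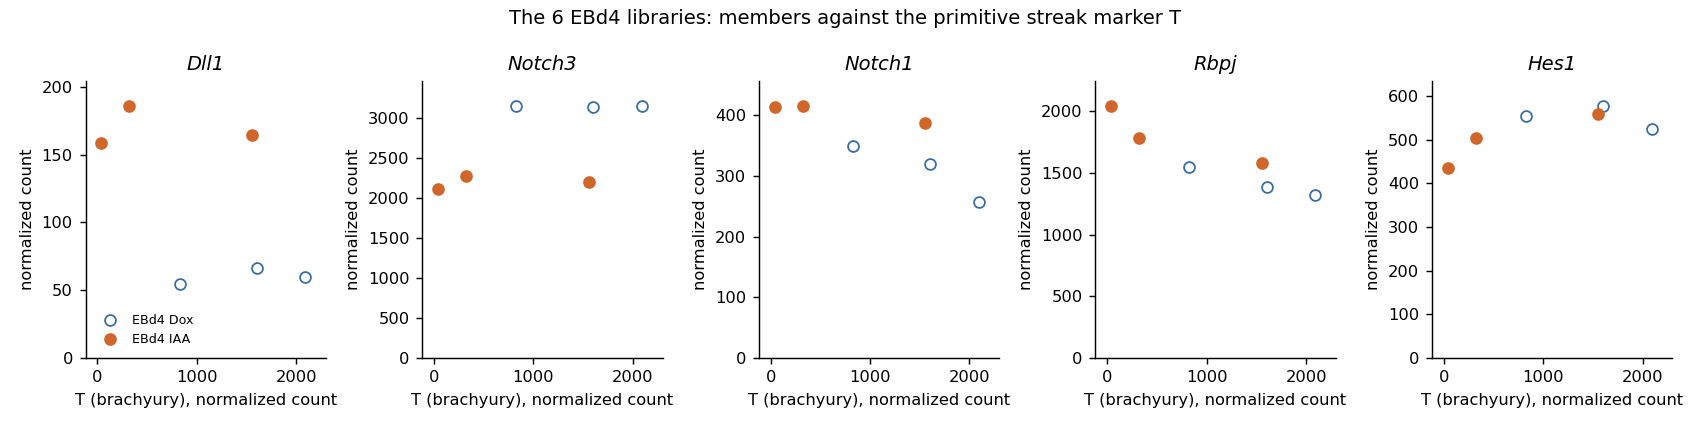
Normalized count of 5 genes (vertical axes from 0) against that of the primitive streak marker T (horizontal axis) in the 6 EBd4 libraries (open, Dox; filled, IAA). Dll1 lies from 158 to 186 with IAA, where T runs from 39.8 to 1556, and from 54.1 to 66.0 in Dox, where T runs from 826 to 2091. Rbpj and Notch1 are lowest in the library with most T.

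Of the wider pathway in EBd4, 7 of 77 tested genes rose and 7 fell, against 4.69% and 5.57% of all genes. The 77 include the 10 genes above, of which 4 rose and 2 fell, so these counts are not separate from theirs. Corepressors rose in 3 of 14 and fell in 2, with Tle3 from 1275 to 1658 (0.38) and Sap30 from 590.5 to 772 (0.39) up and the deacetylase gene Hdac1 down (-0.24). The Mastermind genes Maml2, from 48.7 to 17.9 (-1.40), and Maml1 (-0.23) fell, as did the ubiquitin ligase gene Dtx3l (-0.56).

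Whether the IAA difference itself changed from one stage to the next was tested in 1 fit of all 24 libraries, and neighbouring tests share the stage between them. From mES to EBd2, 3 of the 10 genes passed, against 16.3% of the 22019 genes tested (9.73% up, 6.61% down). Among the 14718 genes with a mean of at least 10, 3898 passed in this step, 1763 from EBd2 to EBd3 and 1232 from EBd3 to EBd4. The IAA difference of Jag2 turned from lower to higher (0.48 ± 0.12, adjusted p = 0.00423), that of Rbpj from higher to lower (-0.30 ± 0.09, adjusted p = 0.0145), and the fall of Notch3 became smaller (0.30 ± 0.08, adjusted p = 0.00757). The change in the Hes1 difference from 0.39 to 0.81 did not pass (0.41 ± 0.16, adjusted p = 0.0680), though it did with edgeR (adjusted p = 0.0178), DESeq2 (adjusted p = 0.0317) and TMM scaling (adjusted p = 0.0453). Rbpj was lost without EBd2 IAA 3 (-0.26, adjusted p = 0.0515).

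From EBd2 to EBd3, Hes1 was the 1 gene of 10 to pass (-0.80 ± 0.16, adjusted p = 0.00110), against 7.22% of genes (2.92% up, 4.29% down). Dll1 did not (0.77 ± 0.28, adjusted p = 0.0918), but passed with edgeR (0.84, adjusted p = 0.0196), with DESeq2 (0.86, adjusted p = 0.0136), and without EBd2 Dox 3 (1.095, adjusted p = 0.00340) or EBd3 IAA 1 (0.94, adjusted p = 0.0480). From EBd3 to EBd4, Dll1 (1.27 ± 0.28, adjusted p = 0.00640), Rbpj (0.40 ± 0.09, adjusted p = 0.00578) and Jag1 (-0.48 ± 0.15, adjusted p = 0.0498) passed, against 4.93% of genes (2.71% up, 2.23% down). The Jag1 call was at the threshold and was lost under 26 of 32 alternatives. Notch3 showed the same direction in all stages, and its change from EBd2 to EBd3 (-0.12 ± 0.08, adjusted p = 0.474) and from EBd3 to EBd4 (-0.07 ± 0.08, adjusted p = 0.700) did not pass.

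Genes of the most similar pattern were sought among 9421 genes with a mean of at least 100, as Pearson's r of log2 levels over the 24 libraries, which share the 4 stages and are given as a description. Closest to Notch3 were Sertad4 (0.990), Slit3 (0.990) and Kcnq3 (0.984). Closest to Dll1 were Tnfrsf10b (0.983), Jmjd1c (0.978) and Gadd45g (0.977), and to Hes1 Atp1b2 (0.977), Golgb1 (0.970) and Olig1 (0.960). Notch2 ran closest to Ccn1 (0.975), Ccn2 (0.966) and Irs2 (0.965), and Jag2 to Rarg (0.979), Wdr81 (0.972) and Letm1 (0.971). For Dll3 they were Cachd1 (0.975), Trim44 (0.972) and Pgap1 (0.965), for Jag1 Mcm3 (0.954), Epha2 (0.947) and Zfp36l1 (0.944), and for Hey1 Per3 (0.970), AW549877 (0.969) and Zfp687 (0.965). Notch1 had Suz12 (0.949), Ppp1r35 (0.948) and Golga2 (0.941), and Rbpj, the gene of narrowest range, had Stag3 (0.934), Abcb1a (0.929) and Pramef12 (0.898).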

How the data were processed

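Total RNA was measured in 24 libraries, grouped by the labels' stage and treatment. The submitters' processing notes name STAR 2.5.3a, featureCounts 1.5.2, DESeq2 and the build mm10, with no role for each; the strand setting is not given in the sources used here. The deposited signal values are counts that the authors divided by 1 size factor per library: 100% were whole reads within 1e-06. The deposited mean equals that over the 24 libraries, so the 4 tables share 1 scaling. From the authors' deposited tables the log2 fold change and the p-value and call columns were used for comparison alone; the deposited Wald score was not used.

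Log2 values, with a pseudocount of 1, were tested in limma 3.58.1 with a mean-variance trend. Genes averaging under 1 in the fitted libraries were left out, and p-values were adjusted by Benjamini-Hochberg over all remaining genes, with 0.05 as threshold. Each stage was fitted alone for IAA, the 12 Dox libraries together for stages, and all 24 for differences between stages. Alternatives were edgeR 4.0.16 and DESeq2 1.42.0 on recovered reads, a pseudocount of 0.5 or 5, no filter or a mean of at least 10, TMM scaling, a replicate block, 1 fit of 24 libraries, and leaving out each library. The fits were tested on simulated data.

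All 10 genes were named in every comparison, and up to 3 others per list and comparison by smallest adjusted p; Hes5, Hes7 and Hey2 were added after their values were seen. Members, lists and motifs were chosen with earlier results of these data known. Positions and lengths came from GENCODE M21 (35652 of 35742 genes found). The length of a gene joins all its annotated exons, for ligands and targets as for receptors.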

Additional observations from a re-analysis of the deposited data

Results flagged for a closer look

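The IAA difference changed between neighbouring stages, by the interaction test of limma over all 24 libraries, for 7 combinations of gene and step. From mES to EBd2 the change was 0.48 for Jag2 (lower with IAA in mES, higher in EBd2), 0.30 for Notch3 (lower in both) and -0.30 for Rbpj (higher in mES, lower in EBd2). From EBd2 to EBd3 it was -0.80 for Hes1, whose rise with IAA was seen in EBd2 but not in EBd3. From EBd3 to EBd4 it was 1.27 for Dll1, -0.48 for Jag1 and 0.40 for Rbpj. The Jag1 value lies at the threshold (adjusted p = 0.0498), and in EBd4 the streak marker T ran from 39.8 to 1556 among the IAA libraries, whose part in the Rbpj value was not tested.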

How the results depend on the processing

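Of 50 calls over the 10 genes and 10 comparisons, 41 stayed past the threshold under every alternative run, among them Notch3 in all 4 stages, Hes1 in mES and EBd2, Dll1 in EBd4 and all calls against mES, and the other 9 were lost under at least 1. Same-numbered libraries did not deviate together (84 pairs, r from -0.18 to 0.094), so they share only a number; with the replicate block Jag1 (adjusted p = 0.0566) and Jag2 (adjusted p = 0.0676) in EBd4 and Jag1 from EBd3 to EBd4 (adjusted p = 0.0603) missed the threshold, and the count of all genes called in EBd4 went from 2173 to 1365. With 1 spread over 24 libraries that count was 3425. In EBd3 DESeq2 called 1283 genes against 2245 by limma, and without the filter 721 genes passed from EBd3 to EBd4 against 1086. From EBd2 to EBd3, 2 of the 10 genes passed with edgeR and 2 with DESeq2, against 1. The causes were not tested.

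Leaving out 1 library gave 3 to 5 genes of the 10 in EBd2, 1 to 2 in EBd3, 2 to 6 in EBd4 and 1 to 2 from EBd2 to EBd3, and over all genes 1202 to 2613 calls in EBd3, 776 to 2039 in EBd4 and 552 to 1358 from EBd3 to EBd4. Over the 10 genes it gave 2 to 4 from mES to EBd2 and 2 to 4 from EBd3 to EBd4.

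The sign turned 44 times, in 17 differences that pass no test and whose size is at most 0.16. With edgeR the value was 0.049 for Dll1 in mES, 0.0034 for Notch2 in EBd4, -0.0033 for Jag1 in EBd2 against mES and 0.031 for Dll3 from mES to EBd2. With DESeq2 it was 0.0055 for Notch2 in EBd4 and 0.0069 for Dll3, and with TMM scaling 0.024 for Dll3. Leaving out 1 library, IAA against Dox in mES ran from -0.21 to 0.12 (Dll1), -0.030 to 0.12 (Jag1) and -0.029 to 0.048 (Notch1). In EBd3 it ran from -0.090 to 0.069 (Jag1), -0.031 to 0.054 (Notch2) and -0.17 to 0.13 (Hes1), and in EBd4 from -0.079 to 0.026 (Notch2) and -0.033 to 0.19 (Hey1). EBd2 against mES ran from -0.037 to 0.10 (Jag1) and -0.21 to 0.043 (Hey1). The change from mES to EBd2 ran from -0.062 to 0.11 (Dll3), that from EBd2 to EBd3 from -0.18 to 0.059 (Jag2), -0.13 to 0.014 (Notch2) and -0.11 to 0.25 (Hey1), and that from EBd3 to EBd4 from -0.10 to 0.019 (Notch2), -0.28 to 0.018 (Hes1) and -0.33 to 0.029 (Hey1). Depth limits Dll1 in mES, at 3 to 7 reads per library, and Hey1.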
